A study of Mus musculus with 6 samples.

Results

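The 10 genes of fatty acid uptake and binding followed here in mouse colorectal tumours were Cd36, Slc27a1, Slc27a3, Slc27a4, Fabp3, Fabp4, Fabp5, Lpl, Gpihbp1 and Vldlr. They were chosen by their known roles, with earlier results of these data already known. They are 10 of the 22180 genes that the arrays measured with a probe set annotated to exactly 1 gene symbol. Each was read from the probe set with the highest mean over the arrays. Colorectal cancer cells had been injected into white adipose tissue (3 tumours) or into non-adipose tissue (3 tumours), and each tumour was taken at 1 to 1.5 cm3 and hybridised to its own Affymetrix whole-transcript array. The labels call the tumours biological replicates, with 3 mice per group. The cancer line, the mouse strain, sex and age, the fat depot and the kind of non-adipose tissue are not stated in the labels, and no treatment or engineered allele is named for either group.

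Fatty acids reach cells from triglyceride-rich lipoproteins and from free fatty acid bound to albumin. Lipoprotein lipase (Lpl) splits lipoprotein triglyceride at the capillary wall, where Gpihbp1 holds it, and Vldlr binds the particles. The scavenger receptor Cd36 and the fatty acid transport proteins of the Slc27 family help fatty acids across the plasma membrane, and the fatty acid binding proteins (Fabp) carry them in the cytosol. White adipose tissue is rich in Cd36, Fabp4 and Lpl.

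All values are log2 probe set signals, in which a difference of 1 is a 2-fold change. The arrays correlated across genes at 0.983 to 0.995, and their medians lay between 5.66 and 5.69. No detection call was at hand, so a dim probe set may be reading background. For 35.3% of all genes the deposited value was exactly equal on 2 or more arrays, and an SD over such arrays may understate the spread between tumours. This held for 1 of the 10 genes, Slc27a3 (non-adipose replicates 2 and 3), and for 6 of the 9 adipocyte markers. Markers of the labelled tissue were uneven: the simple-epithelium keratins Krt8 and Krt18 lay at brightness percentiles 96.1 and 94.9 of all genes. The adhesion gene Epcam lay at 29.1, the intestinal transcription factor Cdx2 at 38.9 and the brush-border gene Vil1 at 23.3. White adipose replicate 1 stood apart by its skin epithelial markers, which averaged 7.85 there against 5.30 to 6.03 on the other arrays. Skeletal muscle markers were highest in non-adipose replicates 3 and 1.

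None of the 10 genes differed between the sites by limma, whose adjusted p over all genes ran from 0.936 to 0.995 for them. The call rate over all genes was 0% at an adjusted p of 0.05. At an unadjusted p under 0.05 there were 0 of the 10 genes, against 3.79% of all genes (1.66% higher and 2.13% lower in white adipose tumours). The means were higher in white adipose tumours for Cd36, Slc27a1, Fabp5, Gpihbp1 and Fabp3 and lower for Fabp4, Lpl, Slc27a4, Slc27a3 and Vldlr, 5 each way, where 49.8% of all genes had the higher mean there. The median log2 difference was -0.0026 over the 10 and -0.00043 over all genes. The arrays of the groups overlapped for each of the 10, while 7.31% of all genes had groups without overlap (3.34% higher and 3.97% lower in white adipose tumours). The 95% confidence interval of the difference lay within 2-fold in both directions for 7 genes. For Cd36, Fabp4 and Fabp5 it was wider.

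**Figure D1:**
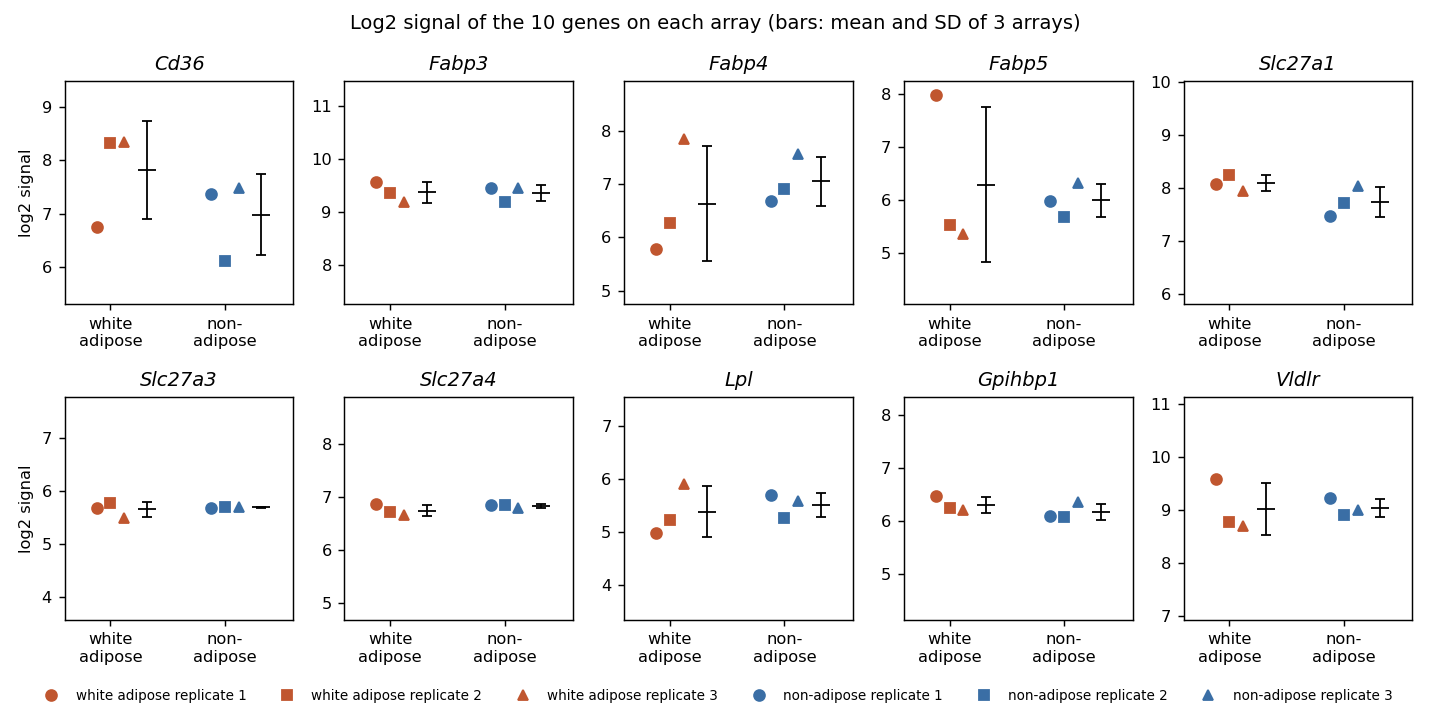
Log2 signal of each of the 10 genes, 1 panel a gene, with 3 white adipose arrays on the left and 3 non-adipose arrays on the right of each panel; symbols mark the replicate and the bars the mean ± SD. All panels span the same height, and the arrays spread most for Fabp5, Cd36 and Fabp4.

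Lpl, the lipase that releases fatty acids from lipoproteins, stood at 4.98, 5.23 and 5.91 in white adipose replicates 1, 2 and 3, against 5.69, 5.26 and 5.57 in non-adipose replicates 1, 2 and 3. The white adipose arrays held both the lowest and the highest value. Its mean was 5.37 ± 0.48 in white adipose and 5.51 ± 0.22 in non-adipose tumours (SD, n = 3 each), a log2 difference of -0.13 (SE 0.25; 95% interval -0.75 to 0.48; limma adjusted p = 0.958). With white adipose replicate 1 left out the difference turned to 0.060, and with white adipose replicate 3 left out it was -0.40. Leaving out non-adipose replicate 2 gave -0.26, and values nearer to 0, -0.061 and -0.043, came from leaving out white adipose replicate 2 or non-adipose replicate 1. A dimmer probe set of Lpl differed by -0.015 (SE 0.095). The kept probe set lay at percentile 39.9 of brightness.

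Gpihbp1, which carries Lpl across the endothelial cell and anchors it in the capillary, read 6.46, 6.23 and 6.19 in the white adipose arrays and 6.08, 6.07 and 6.34 in the non-adipose arrays. Non-adipose replicate 3 lay above white adipose replicates 2 and 3. The log2 difference was 0.13 (SE 0.11; interval -0.14 to 0.40; adjusted p = 0.936). Leaving out white adipose replicate 1 gave 0.048, non-adipose replicate 3 gave 0.22, and non-adipose replicates 1 and 2 in turn gave 0.088 and 0.083. Endothelial markers, the cells in which Gpihbp1 is known, averaged 6.61 ± 0.079 in white adipose and 6.59 ± 0.15 in non-adipose tumours (SD, n = 3 each). In tumour RNA, fewer cells of a type and less RNA per cell cannot be told apart.

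Vldlr, a receptor for triglyceride-rich lipoproteins, read 9.59, 8.78 and 8.71 in the white adipose arrays, against 9.23, 8.91 and 8.997 in the non-adipose arrays. The highest of the 6 arrays was white adipose replicate 1, and the lowest were white adipose replicates 2 and 3. With a mean of 9.03 ± 0.49 in white adipose and 9.04 ± 0.17 in non-adipose tumours (SD, n = 3 each), the difference was -0.017 (SE 0.25; interval -0.62 to 0.58; adjusted p = 0.995). Leaving out white adipose replicate 1 gave -0.30 and replicate 3 gave 0.14. The value was also positive when white adipose replicate 2 (0.11) or non-adipose replicate 1 (0.076) was left out, and -0.086 and -0.041 when non-adipose replicates 2 and 3 were.

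Cd36, the long-chain fatty acid receptor, had the largest difference of the 10. It stood at 6.75, 8.33 and 8.36 in white adipose replicates 1, 2 and 3, against 7.36, 6.10 and 7.48 in non-adipose replicates 1, 2 and 3. White adipose replicates 2 and 3 were the highest arrays, while white adipose replicate 1 lay below non-adipose replicates 1 and 3, so the groups overlapped. The mean was 7.81 ± 0.92 in white adipose and 6.98 ± 0.77 in non-adipose tumours (SD, n = 3 each), a log2 difference of 0.83 (SE 0.56) or 1.78-fold. The 95% interval ran from 0.690-fold to 4.59-fold, with a limma adjusted p of 0.936 and a two-sided exact permutation p of 0.3. The smallest exact p that 3 against 3 arrays allow is 0.1. Leaving out white adipose replicate 1 raised the difference to 1.36, and leaving out non-adipose replicate 2, the lowest array, reduced it to 0.39. It stayed positive whichever array was left out, with adjusted p values of 0.581 or more.

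A promoter window of Cd36 is shown because Cd36 differed most, and 1 of Slc27a1 because it had the smallest unadjusted p of the 10. RefSeq (GRCm38.p6) promoter sequences were at hand for 6 of the 10 genes, in 9 windows. Starts are counted among these windows only. The Cd36 window lies inside the annotated gene, which spans 17781690 to 17888959. The bases before the outermost start of Cd36 were not searched. The first Slc27a1 window overlaps the annotated gene, which begins at 71568728. Each line gives the 250 bases before a start, on the strand of the gene, with matches to 4 short motifs, searched on both strands, in capitals. The motif AGGTCA is the hexamer bound by PPAR and other nuclear receptors. The motif CCAAT is a common promoter box. The TATA box was searched as TATAAA. The GC box was searched as GGGCGG.
Cd36, chr5:17835897-17836146, minus strand: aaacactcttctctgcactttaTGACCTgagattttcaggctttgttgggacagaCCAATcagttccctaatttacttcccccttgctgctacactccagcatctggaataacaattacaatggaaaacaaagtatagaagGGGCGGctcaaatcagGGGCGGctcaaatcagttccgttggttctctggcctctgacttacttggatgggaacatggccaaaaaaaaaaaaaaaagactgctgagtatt
Slc27a1, first of 3 starts, chr8:71568621-71568870, plus strand: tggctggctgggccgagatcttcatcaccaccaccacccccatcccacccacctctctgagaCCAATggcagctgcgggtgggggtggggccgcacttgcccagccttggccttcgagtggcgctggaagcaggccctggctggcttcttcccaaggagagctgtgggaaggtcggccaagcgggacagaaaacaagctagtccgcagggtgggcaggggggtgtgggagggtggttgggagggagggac

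The Cd36 window held AGGTCA once, on its opposite strand, beginning 228 bases before the start. It also held CCAAT 195 bases before the start and GGGCGG at 109 and at 93 bases. Among the 9 windows, AGGTCA was found in that of Cd36 alone, and 14% of all promoters in the table hold it in a window of this length. The paired form AGGTCANAGGTCA, in which 1 base parts the hexamers, was found in 0 of the 9 and in 0.0335% of all promoters. CCAAT is in 33.8%, GGGCGG in 32.7% and TATAAA in 12.4% of all promoters. The window of the first Slc27a1 start held CCAAT 188 bases before the start and none of the other motifs. That of the second start held GGGCGG once, at 139 bases, and that of the third start held GGGCGG at 159, 48 and 17 bases and CCAAT at 128. A match is a description of the letters in these windows.

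Slc27a1, fatty acid transport protein 1, which also joins long-chain fatty acids to coenzyme A, read 8.08, 8.25 and 7.96 in the white adipose arrays, against 7.48, 7.71 and 8.04 in the non-adipose arrays. Non-adipose replicate 3 lay above white adipose replicate 3, and the other non-adipose arrays lay below all 3 white adipose ones. The mean was 8.10 ± 0.15 in white adipose and 7.74 ± 0.28 in non-adipose tumours (SD, n = 3 each). Its log2 difference of 0.35 (SE 0.16), 1.28-fold, had the smallest unadjusted p of the 10 genes, 0.0638 by limma, with an adjusted p of 0.936. The interval ran from -0.028 to 0.73, and the exact permutation p was 0.2. With 1 array left out the difference stayed between 0.22 and 0.50, lowest without non-adipose replicate 1. In non-adipose tumours, where Slc27a1 was highest in replicate 3, skeletal muscle markers were also highest in replicate 3 (6.98, against 6.29 and 5.40 in replicates 1 and 2). Non-adipose replicate 1, with the next highest marker mean, had the lowest Slc27a1 of all arrays (7.48). The muscle markers averaged 5.40 to 5.56 in the white adipose arrays, and their part in the result was not tested.

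Slc27a4, fatty acid transport protein 4, the main such protein of the small intestine, read 6.86, 6.71 and 6.66 in the white adipose arrays, against 6.84, 6.85 and 6.79 in the non-adipose arrays. The first white adipose array was the highest of the 6 and the other two were the lowest. The difference was -0.083 (SE 0.073; interval -0.26 to 0.094; adjusted p = 0.936), and with 1 array left out it ran from -0.14 (white adipose replicate 1) to -0.040 (white adipose replicate 3). For Slc27a3, another acyl-CoA synthetase of the family, the white adipose arrays stood at 5.67, 5.77 and 5.48, against 5.68, 5.69 and 5.69 in the non-adipose arrays. The white adipose values lay on both sides of the non-adipose ones. Its difference was -0.041 (SE 0.086; interval -0.25 to 0.17; adjusted p = 0.965), and it became -0.11 or 0.038 when white adipose replicate 2 or 3 was left out. For these 2 genes the intervals bound a lower signal in white adipose tumours at 1.20-fold for Slc27a4 and 1.19-fold for Slc27a3. Slc27a3 lay at percentile 44.7 of brightness and had equal deposited values in non-adipose replicates 2 and 3. Its interval may be too narrow, and its probe set may read background.

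Fabp4, the fatty acid binding protein of adipocytes, also made by macrophages and capillary endothelium, read 5.78, 6.27 and 7.86 in white adipose replicates 1, 2 and 3. The non-adipose replicates 1, 2 and 3 read 6.69, 6.92 and 7.58. White adipose replicate 3 was the highest array of all, and white adipose replicates 1 and 2 were the lowest. The mean was 6.63 ± 1.09 in white adipose and 7.06 ± 0.46 in non-adipose tumours (SD, n = 3 each), a log2 difference of -0.43 (SE 0.55), 1.34-fold lower. The interval ran from -1.77 to 0.92, with an adjusted p of 0.943 and an exact permutation p of 0.6. Single arrays moved this value widely. Leaving out white adipose replicates 1, 2 and 3 in turn gave 0.00053, -0.24 and -1.04, and leaving out non-adipose replicate 3 gave -0.17.

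The 9 adipocyte markers measured averaged 5.54 ± 0.13 in white adipose and 5.48 ± 0.030 in non-adipose tumours (SD, n = 3 each), 8 with a higher and 1 with a lower mean, and 0 passed the threshold. Adipoq, the adiponectin gene, lay at percentile 15.6 of brightness and read 4.10, 4.13 and 4.27 in the white adipose arrays, against an identical 4.14 in each non-adipose array. Plin1, the coat protein of the adipocyte lipid droplet, read 5.65, 5.63 and 5.84 in the white adipose arrays, against 5.62, 5.63 and 5.60 in the non-adipose arrays. White adipose replicate 3, where Fabp4, Lpl and Cd36 were highest, was also the highest array for Adipoq, Plin1, Cidec, Retn, Pck1 and Thrsp. It was not the highest for Plin4, Lipe and Lep. These read 6.25, 6.08 and 4.65 there, against 6.47 (non-adipose replicate 3), 6.13 (non-adipose replicate 1) and 4.77 (white adipose replicate 2). The adipocyte marker mean of white adipose replicate 3 was 5.69, against 5.46 and 5.48 in white adipose replicates 1 and 2. The non-adipose arrays had 5.46 to 5.51. The part of adipocyte RNA in these values was not tested. Macrophage markers averaged 9.01 ± 0.055 in white adipose and 9.12 ± 0.023 in non-adipose tumours (SD, n = 3 each). Of these markers 5 had a higher and 4 a lower mean in white adipose tumours, with a median log2 difference of 0.0028.

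Fabp5, the epidermal fatty acid binding protein, was dominated by 1 array. It read 7.98, 5.54 and 5.36 in white adipose replicates 1, 2 and 3, against 5.98, 5.69 and 6.32 in non-adipose replicates 1, 2 and 3. The first of these lay far above all other arrays, and white adipose replicates 2 and 3 were the lowest. The mean was 6.29 ± 1.46 in white adipose and 5.997 ± 0.32 in non-adipose tumours (SD, n = 3 each), a log2 difference of 0.30 (SE 0.70; interval -1.41 to 2.00; adjusted p = 0.969; exact permutation p = 1). Without white adipose replicate 1 it was -0.55 (adjusted p = 0.608). It was 0.67 and 0.76 without white adipose replicates 2 and 3, and 0.14 and 0.46 without non-adipose replicates 2 and 3.

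The 3 other Fabp5 probe sets were also highest in white adipose replicate 1, and the order of the other arrays varied between probe sets. They read 8.20 to 8.27 in white adipose replicate 1, while white adipose replicates 2 and 3 lay between 3.89 and 4.63. On the non-adipose arrays they read 4.47 to 5.76, with differences of 0.74, 0.16 and 0.20. RefSeq lists a Fabp5 pseudogene, Fabp5l2, and near-identical copies can share signal, so the levels of these probe sets are less certain. Skin epithelial markers were highest on the same array. The 10 measured had means of 7.85, 5.30 and 5.39 in white adipose replicates 1, 2 and 3, against 5.41, 5.35 and 6.03 in non-adipose replicates 1, 2 and 3. Krt10, a keratin of the upper epidermis, stood at 11.59 in white adipose replicate 1 and at 5.90 to 6.16 on the other 5 arrays, and Lor, a cornified-envelope gene, at 8.60 against 5.24 to 5.59. Not every skin marker was level on the other 5 arrays. Krt14, Dsg3 and Trp63 read 8.54, 6.30 and 6.81 in white adipose replicate 1. In non-adipose replicate 3 these markers read 7.23, 6.09 and 7.26. Krt5 had no probe set with exactly 1 symbol. Among the non-adipose arrays the skin marker mean and the kept Fabp5 probe set were highest in replicate 3, whereas the 3 other Fabp5 probe sets were highest in replicate 1.

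**Figure D2:**
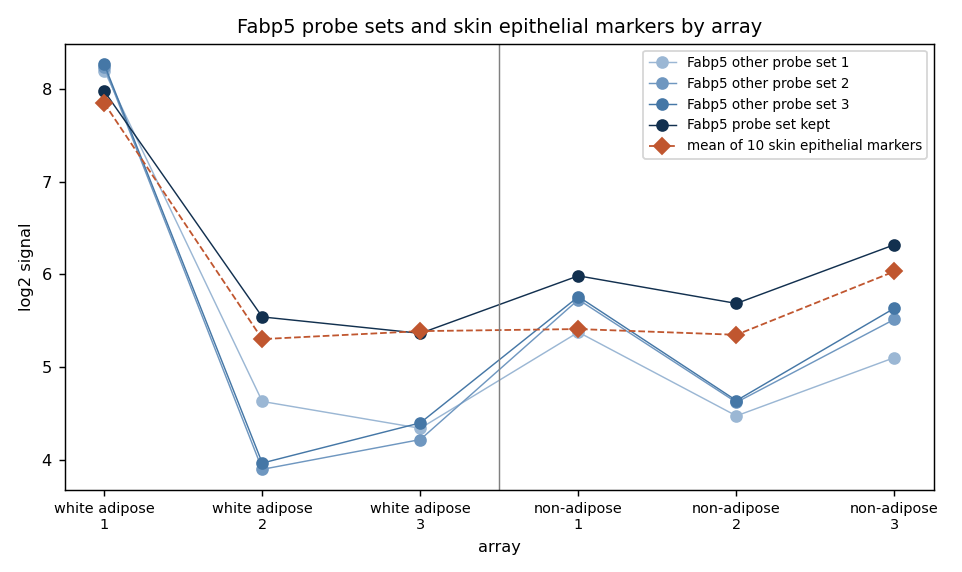
Log2 signal of the 4 Fabp5 probe sets (blue) and the mean of 10 skin epithelial markers (orange diamonds) on each array, white adipose left of the grey line and non-adipose right of it. White adipose replicate 1 is the highest array for every line, with 7.98 to 8.27 for Fabp5 and 7.85 for the markers; the lines join points of separate tumours and mark no order.

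Fabp3, the heart and muscle fatty acid binding protein, was bright and nearly level. It read 9.57, 9.36 and 9.18 in the white adipose arrays, against 9.44, 9.18 and 9.46 in the non-adipose arrays. White adipose arrays were both the highest and the lowest. The mean was 9.37 ± 0.20 in white adipose and 9.36 ± 0.15 in non-adipose tumours (SD, n = 3 each), a difference of 0.012 (SE 0.13; adjusted p = 0.995). The interval of -0.30 to 0.32 bounds a change at 1.25-fold upward and 1.23-fold downward. Leaving out 1 array moved it between -0.088 and 0.11, and it was negative without white adipose replicate 1 or non-adipose replicate 2. Its second probe set differed by 0.011 (SE 0.067). That probe set was far dimmer, at 5.14 to 5.29, and did not follow the kept one over the arrays (r = 0.021). It may read background.

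**Figure D3:**
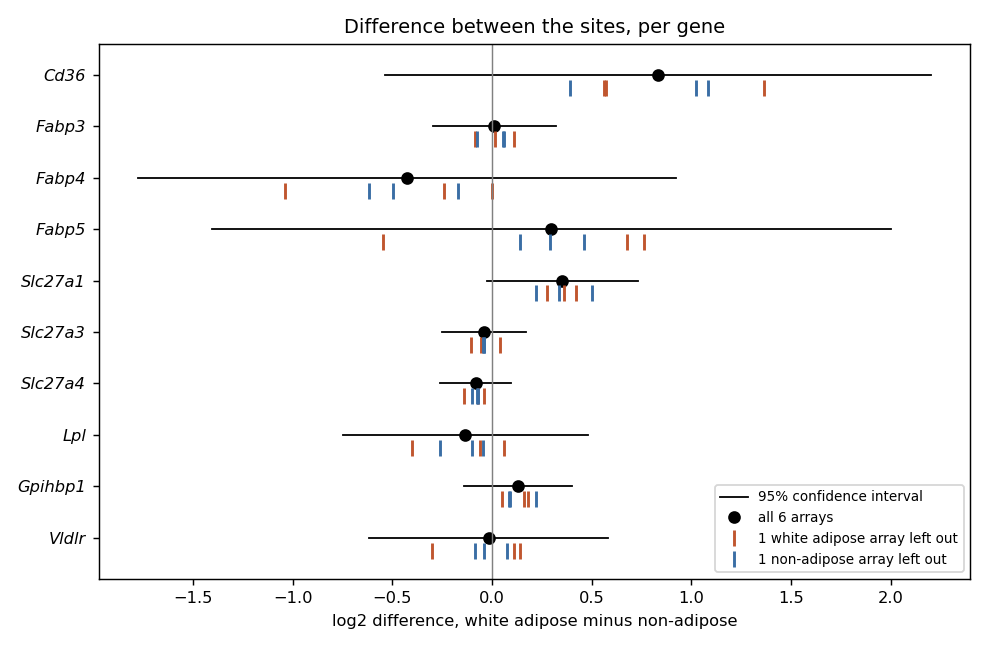
Log2 difference, white adipose minus non-adipose, of each gene (black points, limma) with its 95% confidence interval (black lines), and the difference with 1 white adipose array (orange ticks) or 1 non-adipose array (blue ticks) left out. All intervals include 0. Cd36, Slc27a1 and Gpihbp1 stay above 0 and Slc27a4 below 0 whichever array is left out. Fabp3, Fabp4, Fabp5, Slc27a3, Lpl and Vldlr lie on either side of 0, depending on the array left out.

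For most of these genes the 3 white adipose arrays spread more than the 3 non-adipose arrays. The SD of the 3 white adipose arrays exceeded that of the 3 non-adipose arrays for 8 of the 10 genes, all but Slc27a1 and Gpihbp1, and for 52.8% of all genes. The median SD of the 10 was 0.34 in white adipose and 0.20 in non-adipose tumours, against 0.11 and 0.11 over all genes. The highest of the 6 arrays was a white adipose one for 10 of the 10 genes (51.1% of all genes), and the lowest was one for 7 (52.1%). These counts are descriptions: several of the genes followed the same array, and the difference in spread was not tested. For Slc27a3 the non-adipose SD was 0.0082, with equal deposited values in replicates 2 and 3. White adipose replicate 1 was highest for 5 genes, Fabp3, Fabp5, Slc27a4, Gpihbp1 and Vldlr, and lowest for Fabp4 and Lpl. White adipose replicate 3 was highest for Cd36, Fabp4 and Lpl and lowest for Fabp3, Fabp5, Slc27a3, Slc27a4 and Vldlr. By SD over the 6 arrays, Fabp5, Cd36 and Fabp4 lay at percentiles 99.6, 99.5 and 99.3 of all genes, whereas Slc27a3 and Slc27a4 lay at 32.1 and 24.5.

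**Figure D4:**
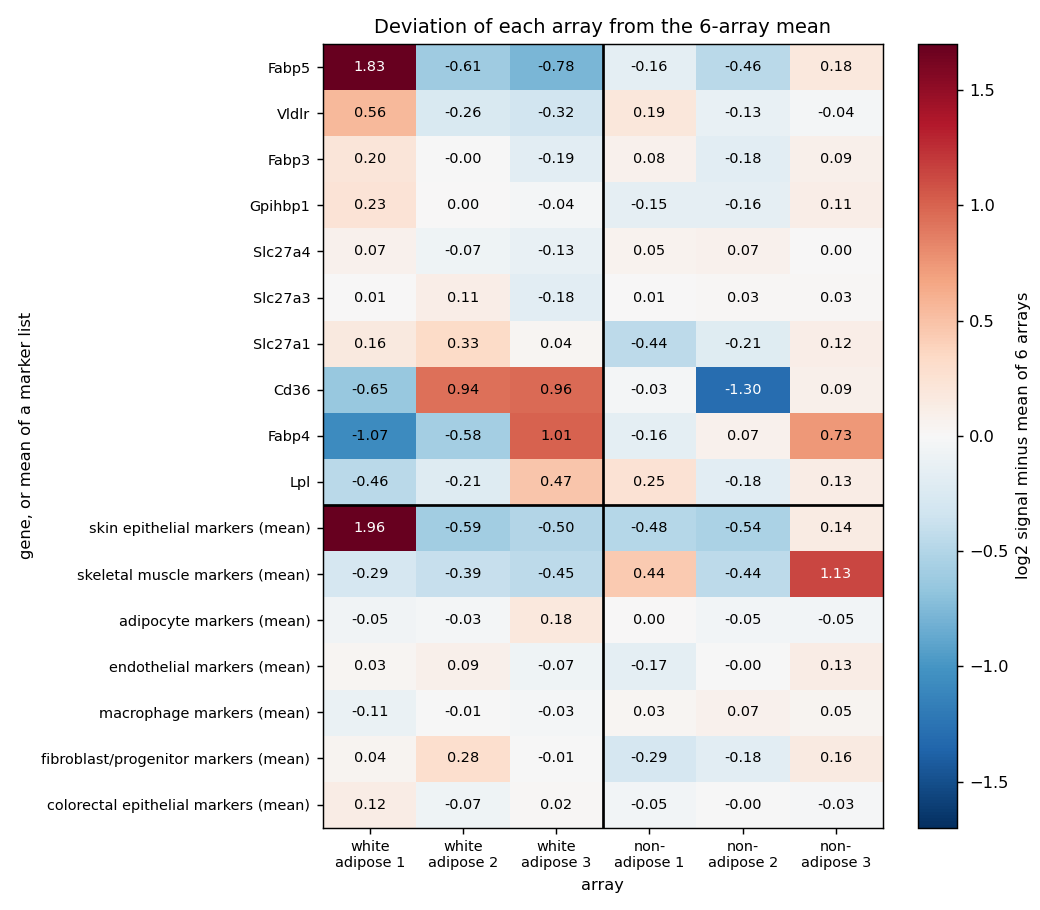
Log2 signal of each gene (upper rows) and mean of each cell type marker list (lower rows) on each array, as the deviation from the mean of the 6 arrays, with white adipose arrays left of the vertical line. White adipose replicate 1 is high for Fabp5 (1.83) and the skin markers (1.96) and low for Fabp4 (-1.07); replicate 3 is high for Fabp4 (1.01), Cd36 (0.96) and Lpl (0.47).

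Among the 45 pairs of the 10 genes, Pearson r over the 6 arrays ran from -0.89 to 0.92, with 24 positive and 21 negative. An exact permutation p (720 orders) was under 0.05 for 6 pairs and, after Benjamini-Hochberg adjustment over the 45, for 0. The highest was Fabp5 with Vldlr (r = 0.92, exact p = 0.0139, adjusted 0.271; Spearman rho = 0.94, exact p = 0.0167, adjusted 0.25), at 0.94 with group means removed. Without the 2 arrays farthest from the median of Fabp5, white adipose replicate 1 and non-adipose replicate 3, r was 0.98 over 4 arrays. Fabp4 with Lpl, the pair that adipocytes share, had r = 0.84 (exact p = 0.0389, adjusted 0.365; rho = 0.83, exact p = 0.0583, adjusted 0.438), which rested on white adipose replicates 3 and 1, since r was 0.44 without them. Cd36 with Slc27a4 had the lowest r, -0.89 (exact p = 0.0181, adjusted 0.271; rho = -0.94, exact p = 0.0167, adjusted 0.25), and -0.96 without non-adipose replicate 2 and white adipose replicate 3.

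The genes most like Cd36, Fabp4 and Lpl in pattern were sought by Pearson r over the 6 arrays among genes brighter than the median gene. For Cd36 they were Plaat3, Snx20 and Rbm7, at r = 0.99 each. For Fabp4 they were Emg1 (0.99), Mir185 (0.97) and Dcun1d5 (0.97), and for Lpl they were Brix1 (0.99), Dnajc7 (0.97) and Gar1 (0.97). With 6 arrays and 11089 genes to choose from, r of this size is given as a description. The difference between the sites was under 0.2 on the log2 scale in all 9, from -0.065 (SE 0.12) in Gar1 to 0.18 (SE 0.12) in Snx20.

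The wider pathway was described from 4 further lists, and 0 of their 42 measured genes passed the threshold. Regulators and relatives of Lpl had 5 higher and 7 lower means of 12, with a median difference of -0.018 (all genes -0.00043). Lipg, the endothelial lipase, read 8.31, 7.52 and 8.23 in the white adipose arrays, against 8.89, 8.40 and 8.41 in the non-adipose arrays. All 3 white adipose arrays lay below the non-adipose ones, with a difference of -0.54 (SE 0.25; adjusted p = 0.936), -0.29 without white adipose replicate 2. Furin, a protease that can cleave Lpl and the Lpl inhibitor Angptl4, read 8.87, 8.69 and 8.82 in the white adipose arrays, against 9.11, 8.99 and 9.02 in the non-adipose arrays, also without overlap (-0.25, SE 0.074; unadjusted p = 0.0148; adjusted p = 0.936). Over all genes, 3.97% lay lower in white adipose tumours without overlap and 2.13% were lower at an unadjusted p under 0.05. Angptl4 itself differed by -0.18 (SE 0.22), and by 0.022 or -0.33 when white adipose replicate 2 or 3 was left out.

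Other uptake genes had 4 higher and 8 lower means of 12, with a median of -0.037. Zdhhc5, a palmitoyltransferase that acts on Cd36, lay lower in every white adipose array, at 10.24, 10.21 and 10.16 against 10.29, 10.34 and 10.33 in the non-adipose arrays (-0.11, SE 0.056; adjusted p = 0.936). It was 1 of the 12 without overlap, and 7.31% of all genes had none. Ffar1, a fatty acid receptor, differed by 0.16 (SE 0.092) and Cav1, the caveolar coat protein, by -0.11 (SE 0.16; -0.29 without white adipose replicate 1, where it was highest). Other fatty acid and acyl-CoA binding proteins had 3 higher and 6 lower of 9 (median -0.091), with Fabp1, the liver form, at -0.18 (SE 0.11), brightness percentile 8.58, and Dbi, the acyl-CoA binding protein, at 0.12 (SE 0.073). Other lipoprotein receptors and partners had 5 higher and 4 lower of 9 (median 0.012), with the sorting receptor Sort1 at 0.29 (SE 0.32; 0.019 without white adipose replicate 2) and Lrp8, which is closely related to Vldlr, at -0.057 (SE 0.065). All these adjusted p values were 0.936 or higher.

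Of the cell type lists, 0 of 70 measured genes passed the threshold. Skeletal muscle markers had a lower mean in white adipose tumours for 10 of 10, with Ckm at -0.52 (SE 0.18) and Actn3 at -0.93 (SE 0.42; -0.49 without non-adipose replicate 3). Skin epithelial markers had a higher mean for 10 of 10, with Krt10 at 1.73 (SE 1.52) and at -0.15 without white adipose replicate 1. Fibroblast and adipose progenitor markers had 7 higher and 3 lower, with Lum at 0.99 (SE 0.42) and Pdgfra at 0.68 (SE 0.36). Endothelial markers had 6 higher and 5 lower, with Cldn5 at 0.21 (SE 0.074), Kdr at -0.17 (SE 0.093) and Pecam1 at -0.026 (SE 0.14). Macrophage markers had 5 higher and 4 lower, with Itgam at -0.22 (SE 0.073) and Cd68 at -0.14 (SE 0.080). Colorectal epithelial markers had 7 higher and 4 lower, with Krt8 at 0.21 (SE 0.12), Muc13 at 0.12 (SE 0.074) and Epcam at 0.082 (SE 0.18). Among the 4 lower ones, Cdx2 was at -0.16 (SE 0.13). Adipocyte markers Thrsp and Pck1 differed by 0.12 (SE 0.057) and 0.15 (SE 0.12). Over all these lists the groups did not overlap for Itgam, Cd68 and Ckm, lower in every white adipose array (3.97% of all genes), or for Cldn5 and Thrsp, higher in every one (3.34% of all genes).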

How the data were processed

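The deposited values were a table of log2 signals for 41345 probe sets on 6 arrays. They were taken as log2 because they ran from 0.973 to 13.6, and no further scaling was applied. Per the submitters' processing notes the authors made them with Affymetrix Expression Console; how it summarised and normalized the probes is not stated there. Per the labels' protocols, the WT PLUS reagents gave biotin-labelled cDNA. The platform annotation gave 23521 probe sets exactly 1 gene symbol, and the one with the highest mean over 6 arrays was kept for each of 22180 genes. Scan dates and slides were not used here, so batches were not tested.

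All genes were fitted together with limma 3.58.1 in R 4.3.3 (lmFit, eBayes), white adipose minus non-adipose, with Benjamini-Hochberg adjustment over all genes and 0.05 as the threshold. SEs are moderated; the number of arrays limits precision (median SE 0.0972). Confidence intervals are 95% and come from that fit. Replicate numbers were not taken to pair tumours, because the labels state no pairing. Same-numbered arrays deviated together at r = 0.14, 0.064 and 0.064 over genes. White adipose replicate 2 with non-adipose replicate 3 had r = 0.086, so these values cannot decide whether tumours were paired. The genes and lists were chosen with earlier results of these data known. Of 120 listed genes outside the 10, 112 had a value. The genes named were the 10, up to 2 with the smallest p from each list, 6 measured genes named in every case (Angptl4, Cav1, Adipoq, Plin1, Pecam1 and Epcam) and the 3 most like each of Cd36, Fabp4 and Lpl. Further genes named (Krt18, Cdx2 and Vil1) were chosen to check the labelled tissue. Krt14, Dsg3 and Trp63 were named after seeing the data, as skin markers also high in non-adipose replicate 3. Cidec, Retn, Plin4, Lipe and Lep were also named after seeing the data, to give the highest array of each adipocyte marker. Alternatives were quantile normalization, median centring, eBayes with trend, array weights, a filter on dim genes, the mean of probe sets, the replicate block and leaving out arrays.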

Additional observations from a re-analysis of the deposited data

How the results depend on the processing

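In all 14 alternatives, limma called 0 genes at an adjusted p of 0.05, and the lowest adjusted p of any of the 10 genes was 0.431. That was Cd36 with both white adipose replicate 1 and non-adipose replicate 3 left out, an alternative chosen after seeing the data. At an unadjusted p under 0.05 the fit had 841 genes, 640 to 1800 with 1 array left out, 1621 with array weights and 2345 with those 2 arrays left out. Of 138 recomputed differences of the 10 genes, 18 changed sign, and the cause was not tested. Vldlr became 0.0043 after quantile normalization, and Fabp3 -0.0096 with array medians subtracted. Array weights, which gave white adipose replicate 1 the lowest weight (0.435), turned Fabp3 to -0.060, Fabp5 to -0.22, Lpl to 0.00060, Mir185 to 0.022, Brix1 to 0.0049 and Dnajc7 to 0.018. Without those 2 arrays Fabp3 was at -0.039, Fabp4 at 0.26, Fabp5 at -0.38, Lpl at 0.093, Krt10 at -0.17, Pecam1 at 0.056, Emg1 at 0.012, Mir185 at 0.052, Dcun1d5 at 0.010, Brix1 at 0.041 and Dnajc7 at 0.056, and Cd36 was at 1.61. With 1 array left out the number of the 10 with a higher mean ran from 4 to 7, and their median from -0.054 to 0.12. Differences then ran from -0.088 to 0.11 for Fabp3, -1.04 to 0.00053 for Fabp4, -0.55 to 0.76 for Fabp5, -0.40 to 0.060 for Lpl, -0.11 to 0.038 for Slc27a3 and -0.30 to 0.14 for Vldlr. Among the other genes they ran from -0.036 to 1.61 for Lor, -0.15 to 2.69 for Krt10, -0.33 to 0.022 for Angptl4, -0.023 to 0.063 for Adipoq, -0.14 to 0.093 for Pecam1, -0.066 to 0.27 for Epcam, -0.065 to 0.030 for Mir185, -0.15 to 0.032 for Brix1 and -0.12 to 0.037 for Dnajc7. With the replicate number as a block, 0 genes were called and 1081 had an unadjusted p under 0.05; the block changed no call. The filter on dim genes removed Slc27a3 and Lpl, so the median and the count of the 10 were not recomputed there. Without detection calls, the dimmest genes named here may read background.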
